A study of Homo sapiens with 6 samples.

Results

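Integrins, laminins and collagens join cells to the extracellular matrix. The genes described here are protein-coding genes of the array whose symbol is that of an integrin alpha or beta chain, of a laminin alpha, beta or gamma chain, or of a collagen alpha chain, each read from 1 transcript cluster (the set of probes that measures a gene), the one with the highest mean. There were 74 of them, 26 integrins, 8 laminins and 40 collagens, among 67528 clusters on the array, of which 18212 carry the symbol of a single protein-coding gene. Clusters annotated with several symbols were not used, so that LAMB3, LAMA5 and COL3A1 were not analysed here.

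The samples were SCC25 cells, a human line of oral (tongue) squamous cell carcinoma, measured on the GeneChip HTA 2.0 array. There were 3 control arrays of cells given DMSO (0.1%) for 6 h and 3 arrays of cells given tunicamycin (TM) at 5 µg mL−1 for 6 h. The series describes the replicates of each group as independent biological ones, all come from a single cell line, and the source name of the TM samples reads SCC28 where every other field reads SCC25. The comparison of TM with control asks how the transcriptome of these cells changes early in endoplasmic reticulum (ER) stress.

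An integrin is a pair of an alpha and a beta chain that spans the plasma membrane and binds matrix proteins outside the cell and the actin or keratin skeleton inside it. A laminin is a trimer of an alpha, a beta and a gamma chain, a collagen is a trimer of alpha chains, and laminins and type IV collagen build the basement membrane on which a squamous epithelium rests. All are made in the ER, where integrin and laminin chains and parts of collagens receive N-linked glycans, and TM blocks the synthesis of those glycans, so that misfolded proteins gather in the ER.

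The arrays labelled control 3 and TM 3 went against their labels for genes of the ER stress response. DDIT3, the gene of the stress-induced factor CHOP, had log2 values of 9.04 and 8.88 in TM 1 and TM 2 and of 9.28 in control 3, against 6.02 and 6.01 in control 1 and control 2 and 5.86 in TM 3. HERPUD1 (a protein of ER-associated degradation) and HSPA5 (the chaperone BIP) had the same arrangement, with control 3 high and TM 3 low. Every array stayed in the group its label gives. Counts and differences are given for all 6 arrays and for replicates 1 and 2 alone, and values of the array labelled control 3 and of that labelled TM 3 are given as such. Since replicate 3 was set aside for its ER stress genes, calls in replicates 1 and 2 are no independent evidence of a response. The array medians lay between 5.39 (control 3) and 5.52 (TM 3), and a shift of this size is as large as many of the differences below.

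SCC25 carried the markers of its label. All 6 squamous epithelium markers with a cluster (KRT5, KRT14, SFN, CDH1, CDH3 and EPCAM) had means between 8.76 and 13.19. A cluster was called dim where its mean was at or below 5.75, the level that 95% of the 433 clusters of olfactory receptor genes do not exceed. By this measure 21 members were dim (5 integrins, 3 laminins and 13 collagens) and 53 were not, and none was removed. Of the markers of other cell types, 3 of 6 for fibroblasts, 2 of 7 for leukocytes and platelets and 3 of 5 for endothelium were dim. In RNA of whole cultures, fewer cells of a type and less RNA per cell cannot be told apart. Levels of different clusters are not compared as amounts, because their probes bind differently.

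None of the 74 members passed the adjusted p of 0.05 in limma as fitted, and no member's interval reached a fold change of 2. With all 6 arrays 0 of 74 members passed, as did 0.0% of all clusters, and the lowest adjusted p of a member was 0.143, for COL11A2. In replicates 1 and 2 alone 0 of 74 passed, where 1.22% of all clusters did, and the lowest was 0.0845, for COL4A5. The 95% intervals of the 74 log2 differences lay between −0.35 and 0.38 with all 6 arrays and between −0.44 and 0.42 in replicates 1 and 2. In replicates 1 and 2, 7 of 61 members passed when only the brighter part of the clusters was tested. Of these, COL8A2 and ITGAX were higher and COL4A5, ITGA1, ITGA4, ITGB6 and LAMB1 lower. Among all 33764 clusters of that part, 2727 passed higher and 2889 lower. With trend and robust options 4 members passed (COL4A5, ITGA4, ITGB6 and LAMB1, all lower), against 1860 higher and 2711 lower among 67528 clusters.

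Below that threshold more members were higher than lower with TM, which also held for protein-coding clusters. At an unadjusted p under 0.05 in limma, 29 members were higher and 2 lower with all 6 arrays, against 15.3% and 5.14% of all clusters. At that p 3132 of the 18212 protein-coding clusters were higher and 1084 lower. Of the 9106 at or below their median level 2561 were higher and 277 lower. In replicates 1 and 2 the members numbered 15 and 8, against 14.8% and 12.1% of all clusters. Protein-coding clusters numbered 3270 and 1814 of 18212 there, shares close to those of the members. With a fold change of at least 1.2 added, 0 members were left over all 6 arrays, where 4.24% of all clusters were higher and 1.68% lower (5.92% in all). In replicates 1 and 2 the same thresholds left 2 members, COL4A5 and ITGB6, both lower, where 6.96% of all clusters were higher and 7.6% lower (14.6% in all). Without TM 2 neither of them passed, and ITGB6 did not without control 1 or under quantile normalization. The median log2 difference with all 6 arrays was 0.07 for integrins, −0.004 for laminins and 0.13 for collagens, and 0.04 over all clusters. In replicates 1 and 2 these medians were 0.12, 0.03 and 0.12, and 0.04 over all clusters.

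**Figure D1:**
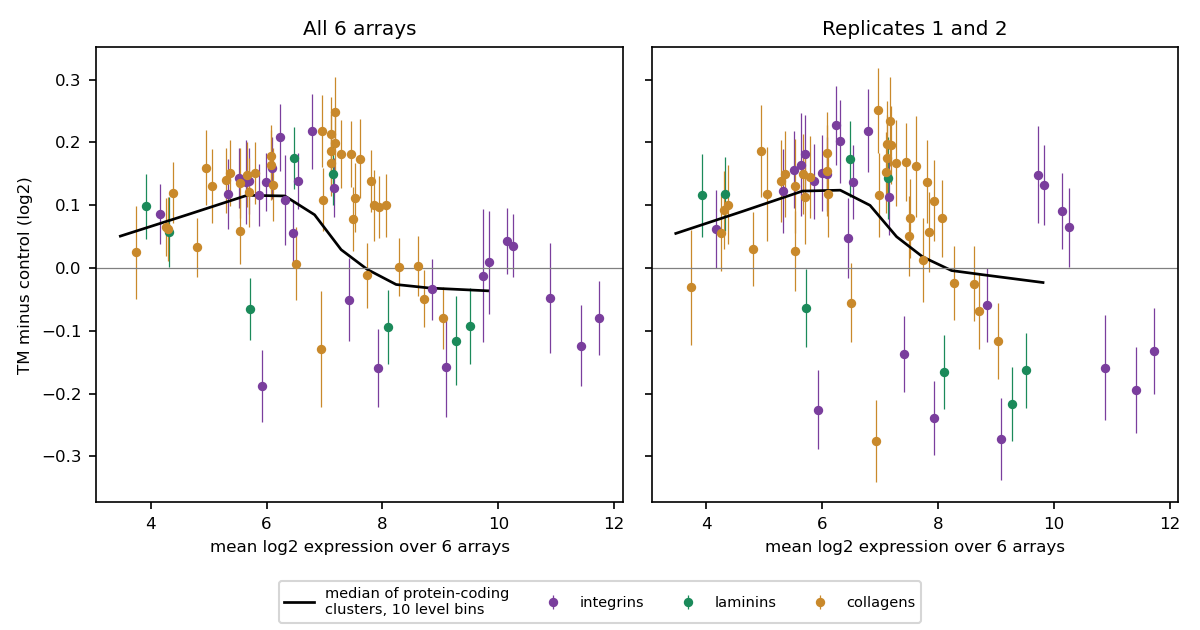
Difference between TM and control (log2, vertical axis) against the mean log2 expression over the 6 arrays (horizontal axis) for the 74 members, with all 6 arrays on the left and replicates 1 and 2 on the right. Points are genes, bars are ± 1 standard error from limma, and the line is the median of protein-coding clusters in 10 bins by level. The line is highest at levels near 6 and below 0 at the top, and most collagens between levels 7 and 8 lie above it.

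The size of the shift depended on the level of the cluster, in protein-coding genes at large as in the members. Over bins of protein-coding clusters the median difference with all 6 arrays was 0.12 at a level of 5.66, 0.11 at 6.31, 0.03 at 7.29 and −0.04 at 9.81. The median level of protein-coding clusters, 7.06, is used below to set brighter members apart, a split chosen after the values were seen. It puts 12 integrins, 4 laminins and 19 collagens among the brighter genes.

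The integrins with the highest values were chains that keratinocytes and carcinoma cells are known to carry. ITGB1, the beta 1 chain shared by many integrins, had control values of 11.80, 11.79 and 11.74 and TM values of 11.72, 11.60 and 11.76. TM 1 and TM 2 lay below all control arrays, and TM 3 lay between them, so that the groups overlapped. The log2 difference was −0.08 (standard error 0.06, adjusted p = 0.464 by limma) and in replicates 1 and 2 it was −0.13 (standard error 0.07, adjusted p = 0.273 by limma). A pair of other clusters annotated to ITGB1 gave 0.05 and 0.002 with all 6 arrays.

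ITGA6, the alpha 6 chain, pairs with beta 4 in hemidesmosomes, the junctions that anchor a basal keratinocyte to laminin. Its control values were 11.51, 11.51 and 11.43 and its TM values 11.37, 11.25 and 11.45. TM 1 and TM 2 were lower than every control array, and TM 3 was above control 3. The log2 difference was −0.19 in replicates 1 and 2 (standard error 0.07, adjusted p = 0.153 from limma) and −0.12 with all 6 arrays (standard error 0.06, adjusted p = 0.317). Its partner ITGB4 was at 10.12, 10.08 and 10.17 in the controls and at 10.18, 10.21 and 10.11 with TM. The 3 TM values lay among or just above the control values, and the log2 difference was 0.04 with all 6 arrays (standard error 0.05) and 0.09 in replicates 1 and 2 (standard error 0.06). The other laminin receptor chain of epithelia, ITGA3, gave 0.04 and 0.06 (standard errors 0.05 and 0.06), with adjusted p values of 0.713 and 0.539 from limma.

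ITGA2 and ITGAV had the array pattern of the ER stress genes at a much smaller size. ITGA2, the alpha 2 chain of a collagen receptor with beta 1, was at 9.68, 9.58 and 9.93 in the controls and at 9.85, 9.71 and 9.60 with TM. Control 3 was the highest array and TM 3 the second lowest. The log2 difference was 0.15 in replicates 1 and 2 (standard error 0.08, adjusted p = 0.276 from limma), −0.33 between TM 3 and control 3, and −0.01 over all 6 arrays (standard error 0.11). ITGAV, the alpha v chain that pairs with several beta chains to bind RGD motifs, was at 9.79, 9.73 and 9.98 in the controls and at 9.92, 9.87 and 9.74 with TM. Again control 3 was highest and TM 3 near the bottom, with 0.13 in replicates 1 and 2 (standard error 0.06, adjusted p = 0.243 from limma), −0.24 in replicate 3 and 0.01 over all 6 arrays.

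The beta chains that pair with alpha v differed from one another. ITGB6, which with alpha v forms an epithelial integrin known to activate latent TGF-β, was at 9.25, 9.17 and 9.09 in the controls and at 8.96, 8.91 and 9.16 with TM. TM 1 and TM 2 lay below all controls, and TM 3 lay above control 3. The log2 difference was −0.27 in replicates 1 and 2 (standard error 0.07, unadjusted p = 0.00720, adjusted p = 0.0865 from limma), or 1.21-fold lower, and −0.16 with all 6 arrays (standard error 0.08, adjusted p = 0.313). Its adjusted p in replicates 1 and 2 ran from 0.0380 to 0.285 over the alternatives. ITGB3, the beta 3 chain of alpha v beta 3 and of the platelet receptor, was at 6.15, 6.25 and 6.39 in the controls and at 6.40, 6.40 and 6.31 with TM. Its difference was 0.20 in replicates 1 and 2 (standard error 0.07, adjusted p = 0.136 from limma), −0.08 in replicate 3 and 0.11 over all 6 arrays. ITGB5 and ITGB8 gave −0.06 and −0.14 in replicates 1 and 2 (standard errors 0.06 for both) and −0.03 and −0.05 over all 6 arrays.

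**Figure D2:**
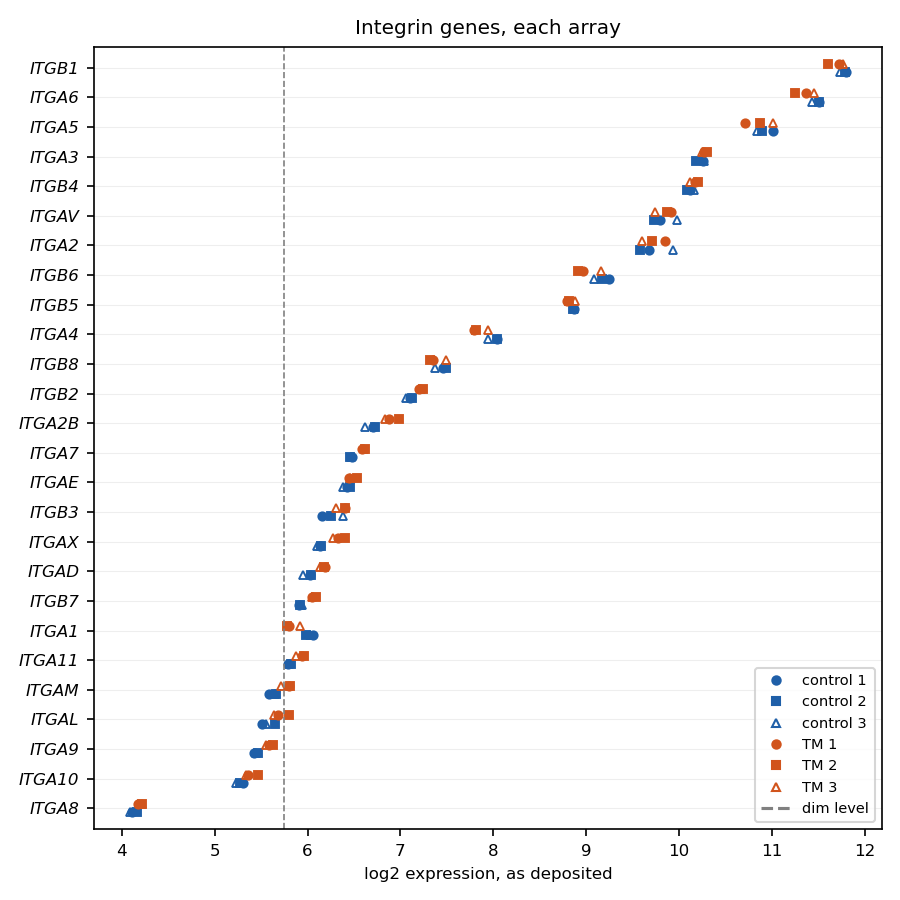
Log2 expression of the 26 integrin genes (horizontal axis, as deposited) in each of the 6 arrays. Blue marks are control and orange marks TM, circles replicate 1, squares replicate 2, open triangles replicate 3, and the dashed line is the dim level of 5.75. For ITGA2 and ITGAV the open triangles are exchanged in order relative to the filled marks, and for the leukocyte chains near 6 all orange marks tend to lie to the right.

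In ITGA4 and ITGA1 the 3 TM arrays lay below the 3 control arrays. These were 2 of 26 integrins, or 7.69%, close to the 7.49% of all clusters and under the 11.3% of protein-coding clusters. ITGA4, the alpha 4 chain that binds fibronectin and VCAM1 with beta 1 or beta 7, was at 8.04, 8.04 and 7.95 in the controls and at 7.79, 7.82 and 7.95 with TM, where control 3 and TM 3 differed by −0.002. The log2 difference was −0.24 in replicates 1 and 2 (standard error 0.06, adjusted p = 0.0906 from limma) and −0.16 over all 6 arrays (standard error 0.06, adjusted p = 0.221). ITGA1, the alpha 1 chain of another collagen receptor, was at 6.05, 5.98 and 6.03 in the controls and at 5.81, 5.78 and 5.92 with TM. Its level was close to the dim level. Its log2 difference was −0.23 in replicates 1 and 2 (standard error 0.06, adjusted p = 0.108 from limma) and −0.19 over all 6 arrays (standard error 0.06, adjusted p = 0.170), and it was the integrin with the lowest difference of the 26 over all 6 arrays. ITGA5, the fibronectin receptor chain, spread more within groups, at 11.01, 10.89 and 10.84 in the controls and at 10.71, 10.87 and 11.02 with TM, and gave −0.16 in replicates 1 and 2 (standard error 0.08), 0.17 in replicate 3 and −0.05 over all 6 arrays.

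All 7 integrin chains classed here as leukocyte chains were higher with TM in both fits. ITGA4, which can pair with ITGB7 of this class, was classed apart, and its TM arrays lay below its controls. With all 6 arrays 61.2% of all clusters were higher, and 77.1% of protein-coding clusters at or below their median level. In 5 of the 7 chains the TM arrays lay above all control arrays. They did so in 20.5% of all clusters and in 42.1% of protein-coding clusters at or below their median level. The median log2 difference of the 7 chains was 0.14 with all 6 arrays and 0.15 in replicates 1 and 2. ITGAX, the alpha X chain (CD11c) of a complement receptor of myeloid cells, was at 6.13, 6.15 and 6.11 in the controls and at 6.33, 6.40 and 6.28 with TM, with no overlap. Its log2 difference was 0.21 (standard error 0.05, adjusted p = 0.147 by limma) and 0.23 in replicates 1 and 2 (standard error 0.06, adjusted p = 0.105). ITGAM, the alpha M chain (CD11b), was at 5.59, 5.66 and 5.65 in the controls and at 5.80, 5.81 and 5.71 with TM, at the dim level and with no overlap, and gave 0.14 and 0.18 (standard errors 0.05 and 0.06). ITGA2B, the platelet alpha IIb chain, was at 6.70, 6.72 and 6.62 in the controls and at 6.88, 6.98 and 6.83 with TM, also with no overlap, and gave 0.22 in both fits (standard errors 0.06 and 0.07, adjusted p = 0.155 and 0.122 from limma).

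These shifts were small, and protein-coding clusters at similar levels were mostly higher as well. In the bins that hold ITGAX and ITGA2B, protein-coding clusters had median differences of 0.11 and 0.08 with all 6 arrays. The differences of ITGAX and ITGA2B were larger than these medians. Over the 7 measured leukocyte and platelet markers, of which 2 were dim, the mean value was 5.71 to 5.74 in the control arrays and 5.84 to 5.95 in the TM arrays, with a median difference of 0.14 with all 6 arrays and 0.17 in replicates 1 and 2. Over the 5 endothelium markers, of which 3 were dim, the mean was 5.24 to 5.28 in the controls and 5.39 to 5.43 with TM. The 6 fibroblast markers went both ways, with 2 higher and 2 lower at an unadjusted p under 0.05 with all 6 arrays and 1 and 3 in replicates 1 and 2 (medians −0.05 and −0.08). The part of other cells, of background or of array scaling in the integrin values was not tested.

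The laminin chains formed 2 sets. LAMA1, LAMB1 and LAMC1, which together make laminin-111, were lower in TM 1 and TM 2 than in all 3 control arrays. LAMB1 was at 9.37, 9.37 and 9.24 in the controls and at 9.14, 9.17 and 9.33 with TM. TM 3 lay near the controls and above control 3. Its log2 difference was −0.22 in replicates 1 and 2 (standard error 0.06, unadjusted p = 0.0126, adjusted p = 0.104 from limma) and −0.12 over all 6 arrays (standard error 0.07, adjusted p = 0.383). LAMC1, the gamma 1 chain of most laminins, was at 9.59, 9.58 and 9.52 in the controls and at 9.40, 9.44 and 9.56 with TM. LAMA1 was at 8.19, 8.17 and 8.07 in the controls and at 8.01, 8.02 and 8.12 with TM. Both had the arrangement of LAMB1, with differences in replicates 1 and 2 of −0.16 and −0.17 (standard errors 0.06 and 0.06, unadjusted p = 0.0389 and 0.0341, adjusted p = 0.165 and 0.156 from limma), and of −0.09 for each over all 6 arrays. In replicate 3 the 3 chains gave 0.05, 0.09 and 0.05 for LAMA1, LAMB1 and LAMC1, the opposite sign.

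The other laminin chains were at lower values and, except LAMA4, leaned upward. LAMB2, the beta 2 chain, was at 6.40, 6.41 and 6.35 in the controls and at 6.56, 6.60 and 6.53 with TM, with no overlap. Its log2 difference was 0.18 with all 6 arrays (standard error 0.05, adjusted p = 0.158 from limma) and 0.17 in replicates 1 and 2 (standard error 0.06, adjusted p = 0.149). LAMC3, the gamma 3 chain, was at 7.07, 7.07 and 7.05 in the controls and at 7.16, 7.26 and 7.21 with TM, again with no overlap and differences of 0.15 and 0.14 (standard errors 0.05 and 0.07). LAMA2, the alpha 2 chain of muscle laminin, and LAMB4 were dim, with differences of 0.06 and 0.10 with all 6 arrays and 0.12 for each in replicates 1 and 2. LAMA4, an alpha chain of vessel walls, was dim as well, and its TM arrays (5.64, 5.71 and 5.71) lay just below its controls (5.72, 5.75 and 5.78), with a difference of −0.07 (standard error 0.05) and of −0.06 in replicates 1 and 2.

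Among the collagens 36 of 40 were higher over all 6 arrays and 33 in replicates 1 and 2, against 61.2% and 58.7% of all clusters. With all 6 arrays 77.1% of protein-coding clusters at or below their median level were higher, and 42.7% of those above it. In 29 of the 40 collagens every TM array lay above every control array. In 2 of the 40 every TM array lay below. No overlap with TM higher was found in 43 of 74 members, or 58.1%, where it was found in 20.5% of all clusters, 27.2% of protein-coding clusters and 42.1% of protein-coding clusters at or below their median level. No overlap with TM lower was found in 5 of 74 members, where it was found in 7.49% of all clusters. Of the 19 collagens above the median level of protein-coding clusters, 13 had TM higher with no overlap, where 12.2% of protein-coding clusters above that level did. These 13 had means between 7.10 and 8.07, while the 12.2% also covers brighter clusters. The median difference of protein-coding clusters fell from 0.03 at a level of 7.29 to −0.04 at 9.81. No share was taken for clusters at the levels of the 13 alone. Under quantile normalization 23 collagens were higher with no overlap (13.1% of all clusters) and 0 lower. With arrays centred by their medians 16 were higher and 4 lower, against 8.26% and 18.4% of all clusters.

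**Figure D3:**
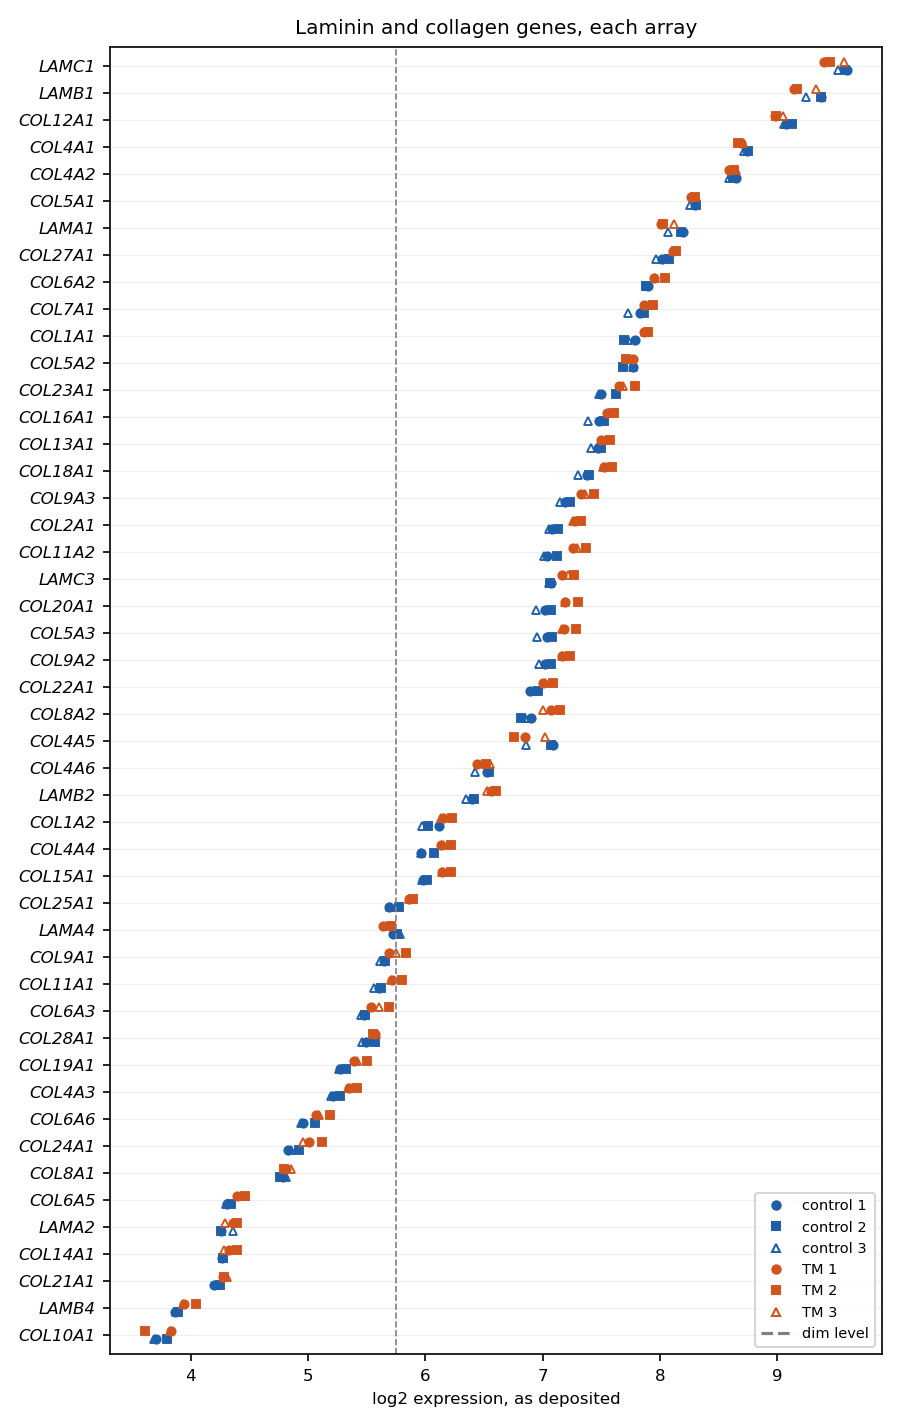
Log2 expression of the 8 laminin and 40 collagen genes (horizontal axis, as deposited) in each of the 6 arrays, with the marks and the dashed dim level of 5.75 as in the plot of the integrins. Between levels 7 and 8 most orange TM marks lie to the right of all blue control marks of the same gene, while LAMB1, LAMC1, LAMA1 and COL4A5 have the filled orange marks on the left.

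The fibrillar collagens polymerise into the cross-banded fibrils of connective tissue. They were higher in 9 of 10 genes, with a median log2 difference of 0.14 in both fits, where 61.2% and 58.7% of all clusters were higher. COL11A2, an alpha chain of type XI collagen of cartilage fibrils, was at 7.04, 7.12 and 7.01 in the controls and at 7.26, 7.37 and 7.29 with TM, with no overlap. Its log2 difference was 0.25 (standard error 0.06, unadjusted p = 0.003, adjusted p = 0.143 from limma) and 0.23 in replicates 1 and 2 (standard error 0.07, adjusted p = 0.123). Clusters of this gene on alternative haplotypes gave nearly the same values and count once here. COL2A1, the chain of the main cartilage collagen, was at 7.08, 7.13 and 7.05 in the controls and at 7.28, 7.33 and 7.25 with TM. There was no overlap, and the difference was 0.20 in both fits (standard errors 0.05 and 0.06, adjusted p = 0.147 and 0.131 from limma). COL5A1, a chain of the fibril-nucleating type V collagen, was at 8.30, 8.30 and 8.25 in the controls and at 8.26, 8.29 and 8.31 with TM, so that the groups overlapped and the difference was 0.002 over all 6 arrays (standard error 0.05) and −0.02 in replicates 1 and 2 (standard error 0.06). Its partner COL5A3 gave 0.19 and 0.18 (standard errors 0.06 and 0.07) with no overlap, and COL5A2 gave −0.01 and 0.01 (standard errors 0.05 and 0.07). COL27A1, a fibrillar collagen of cartilage, was at 8.01, 8.07 and 7.97 in the controls and at 8.11, 8.14 and 8.11 with TM, a difference of 0.10 over all 6 arrays (standard error 0.05) and 0.08 in replicates 1 and 2 (standard error 0.06), and its other cluster gave 0.10 and 0.03.

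Of the FACIT collagens, which sit on the surface of fibrils, 9 of 10 had TM higher with no overlap, and the other had TM lower with no overlap, against 20.5% and 7.49% of all clusters. COL20A1, one of the 9, was at 7.02, 7.07 and 6.94 in the controls and at 7.19, 7.30 and 7.19 with TM. Its log2 difference was 0.21 (standard error 0.06, adjusted p = 0.155 by limma) and 0.20 in replicates 1 and 2 (standard error 0.07, adjusted p = 0.150). COL12A1, a chain that binds type I collagen fibrils, was the exception, at 9.07, 9.12 and 9.05 in the controls and at 8.98, 8.99 and 9.05 with TM. The gap between its lowest control and highest TM array was small, and the difference was −0.08 (standard error 0.05, adjusted p = 0.393 by limma) and −0.12 in replicates 1 and 2 (standard error 0.06). COL8A2, a network collagen of the basement membrane under the corneal endothelium, was at 6.90, 6.81 and 6.85 in the controls and at 7.07, 7.14 and 7.005 with TM, with no overlap. Its difference was 0.22 (standard error 0.06, adjusted p = 0.150 by limma) and 0.25 in replicates 1 and 2 (standard error 0.07, adjusted p = 0.103). Both multiplexins and all 3 transmembrane collagens were higher with no overlap, with medians of 0.18 and 0.15 in both fits. The 5 type VI and related chains were all higher, with medians of 0.12 and 0.11 and no overlap in 4. The shares of all clusters given above are the background of the counts with no overlap. Simply higher were 61.2% of all clusters with all 6 arrays and 58.7% in replicates 1 and 2. Of protein-coding clusters at or below their median level 77.1% were higher with all 6 arrays, and 4 of the 5 type VI and related chains were dim.

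Type IV collagen, the sheet-forming collagen of basement membranes, was mixed, with 4 genes higher and 2 lower and a median of 0.01 over all 6 arrays, and with 2 higher and 4 lower and a median of −0.04 in replicates 1 and 2. Its 6 genes lie as 3 pairs on chromosomes 13, 2 and X, and the genes of a pair are read away from each other from starts close together. In the RefSeq promoter table (GRCh38.p14), whose windows run from 250 bases before to 50 bases after a gene's start, the windows share 226 bases for COL4A1 and COL4A2, 82 for COL4A3 and COL4A4 and 121 for COL4A5 and COL4A6. The windows of the chromosome 2 and X pairs are shown because of their array values. The 2 genes of the former kept their distance in every array, and those of the latter did not. Whether the shared bases bear on this was not tested. Capitals mark the bases that a window shares with its neighbour's, which reads them on the opposite strand. COL4A3 is at chr2:227164374-227164673 (plus strand), COL4A4 at chr2:227164156-227164455 (minus), COL4A5 at chrX:108439588-108439887 (plus) and COL4A6 at chrX:108439409-108439708 (minus).
COL4A3: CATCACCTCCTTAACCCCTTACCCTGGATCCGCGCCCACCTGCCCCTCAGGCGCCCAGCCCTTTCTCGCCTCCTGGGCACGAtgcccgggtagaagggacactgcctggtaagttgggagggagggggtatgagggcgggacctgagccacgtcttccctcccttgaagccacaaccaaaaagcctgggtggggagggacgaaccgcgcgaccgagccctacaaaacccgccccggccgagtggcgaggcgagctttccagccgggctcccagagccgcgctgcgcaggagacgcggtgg
COL4A4: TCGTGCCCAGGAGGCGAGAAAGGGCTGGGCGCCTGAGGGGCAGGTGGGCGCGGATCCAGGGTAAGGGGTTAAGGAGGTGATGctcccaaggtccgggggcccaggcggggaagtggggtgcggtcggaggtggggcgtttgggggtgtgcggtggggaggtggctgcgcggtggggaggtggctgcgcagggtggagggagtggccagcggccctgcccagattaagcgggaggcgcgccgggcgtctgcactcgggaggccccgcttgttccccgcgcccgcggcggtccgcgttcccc
COL4A5: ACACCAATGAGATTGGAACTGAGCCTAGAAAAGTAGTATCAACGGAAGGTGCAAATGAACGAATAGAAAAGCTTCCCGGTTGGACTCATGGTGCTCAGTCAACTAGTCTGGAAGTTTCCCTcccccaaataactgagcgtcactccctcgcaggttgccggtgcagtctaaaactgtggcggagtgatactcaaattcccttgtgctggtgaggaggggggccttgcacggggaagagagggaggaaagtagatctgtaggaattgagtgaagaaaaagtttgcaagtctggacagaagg
COL4A6: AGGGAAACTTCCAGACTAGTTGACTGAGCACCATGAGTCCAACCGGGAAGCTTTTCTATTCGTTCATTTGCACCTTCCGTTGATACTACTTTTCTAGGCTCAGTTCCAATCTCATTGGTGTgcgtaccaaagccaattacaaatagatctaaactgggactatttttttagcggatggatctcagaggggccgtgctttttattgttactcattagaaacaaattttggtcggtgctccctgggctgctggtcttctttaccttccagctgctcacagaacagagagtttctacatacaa

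COL4A5 was the member with the lowest difference in replicates 1 and 2. It encodes the alpha 5 chain, which in the skin and mucosa joins alpha 6 in one trimer. It was at 7.08, 7.07 and 6.86 in the controls and at 6.85, 6.76 and 7.02 with TM. TM 1 and TM 2 lay below all controls, and TM 3 lay above control 3. The log2 difference was −0.28 in replicates 1 and 2 (standard error 0.06, unadjusted p = 0.00675, adjusted p = 0.0845 from limma), or 1.21-fold lower. It was 0.16 in replicate 3 and −0.13 over all 6 arrays (standard error 0.09, adjusted p = 0.454). Its adjusted p in replicates 1 and 2 ran from 0.0373 to 0.280 over the alternatives. COL4A6, the alpha 6 chain on the other side of the shared bases, was at 6.52, 6.54 and 6.42 in the controls and at 6.44, 6.52 and 6.55 with TM, with a difference of −0.05 in replicates 1 and 2 (standard error 0.06) and 0.01 over all 6 arrays. The log2 value of COL4A5 minus that of COL4A6 was 0.56, 0.53 and 0.43 in the controls and 0.41, 0.24 and 0.47 with TM. The probes of these genes differ, so that only its movement between arrays can be read.

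In the other pairs the distance between the 2 genes varied less between arrays. COL4A3 minus COL4A4 stayed between −0.81 and −0.75 in the 6 arrays, while both genes were higher with TM with no overlap (differences 0.14 and 0.16 in both fits). COL4A3 was dim. COL4A1 and COL4A2, the chains of the type IV collagen found in every basement membrane, were at the highest values of the 6 genes. COL4A1 was at 8.74, 8.75 and 8.71 in the controls and at 8.69, 8.66 and 8.70 with TM, lower with no overlap by a small gap, with a difference of −0.05 (standard error 0.05, adjusted p = 0.564 from limma) and −0.07 in replicates 1 and 2 (standard error 0.06). COL4A2 was at 8.65, 8.62 and 8.58 in the controls and at 8.59, 8.63 and 8.65 with TM, with a difference of 0.004 over all 6 arrays (standard error 0.05) and −0.02 in replicates 1 and 2 (standard error 0.06). COL4A1 minus COL4A2 ranged from 0.03 to 0.13, in a pair where neither gene moved much between arrays.

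**Figure D4:**
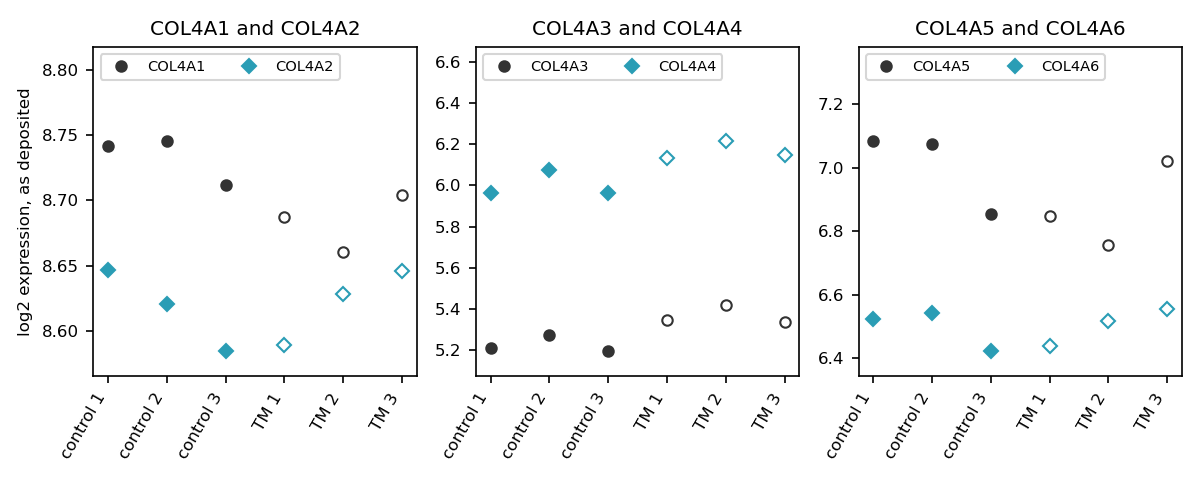
Log2 expression (vertical axis, as deposited, with a scale of its own in each panel) of the 3 type IV collagen pairs in each array. Filled marks are control and open marks TM. The distance between COL4A3 and COL4A4 is nearly constant, and that between COL4A5 and COL4A6 is smallest in TM 2 (0.24) and largest in control 1 (0.56).

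Promoter windows were found for 53 of the 74 members. The ER stress element, whose consensus is CCAAT, 9 bases of any kind and CCACG, was in 0 of the 53 on either strand against 0.104% of the windows of protein-coding genes and 0.0769% of all 35116 windows. The related ERSE-II, ATTGG, any base and CCACG, was in 0 of the 53, against 0.0676% and 0.0541%. The 5 letters CCACG, which end both elements, were in 35.8% of the members' windows, in 43.1% of those of protein-coding genes and in 38.1% of all. These counts describe letters in a window only.

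Replicate 3 had the same sign as replicates 1 and 2 in 53 of the 74 members and the opposite sign in 21, where 55.9% of all clusters and 58.9% of protein-coding clusters had the same. The families split by level. Of the 12 integrins above the median level of protein-coding clusters, 2 had the same sign and 10 the opposite, and of the 4 such laminins 1 and 3. Of the 19 such collagens 16 had the same sign and 3 the opposite. Of the 55 members that were higher in replicates 1 and 2, 48 were also higher in replicate 3, and of the 19 that were lower, 14 were higher there. In all, 34 of 40 collagens had the same sign. These were 32 of the 33 collagens that were higher in replicates 1 and 2 and 2 of the 7 that were lower. Control 3 had the lowest and TM 3 the highest array median (5.39 and 5.52). The median difference in replicate 3 was 0.15 for collagens, 0.07 for all clusters and 0.02 for protein-coding ones. The brighter integrins and laminins mostly had the opposite sign there, and so did DDIT3, HSPA5 and HERPUD1. Of all 9106 protein-coding clusters above the median level, 4844 had the opposite sign and 46.8% the same. Why the arrays differ in this way was not tested.

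**Figure D5:**
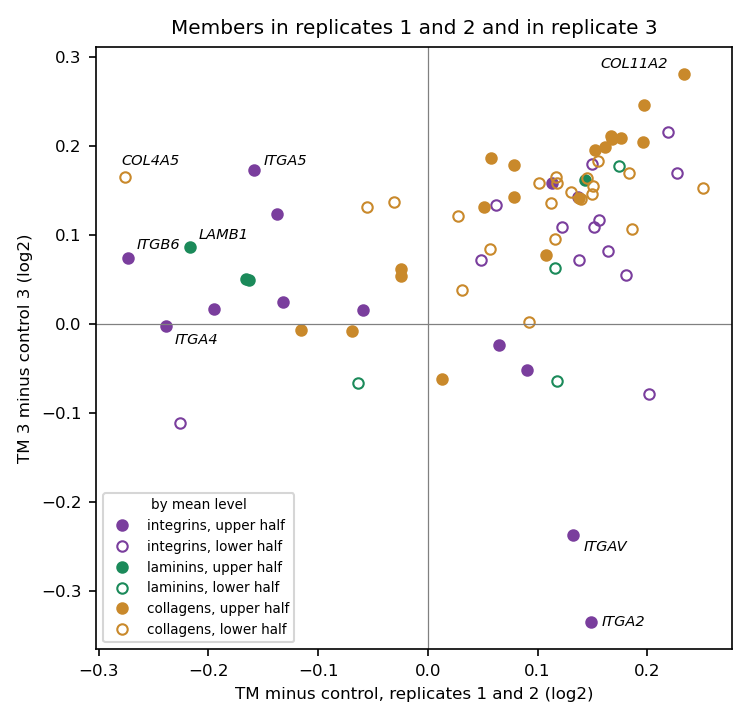
TM 3 minus control 3 (log2, vertical axis) against the difference in replicates 1 and 2 (log2, horizontal axis) for the 74 members. Filled marks are genes above the median level of protein-coding clusters (7.06) and open marks the rest. Most collagens lie in the upper right quadrant, while ITGA2 and ITGAV lie in the lower right and COL4A5, ITGB6, LAMB1 and ITGA5 in the upper left.

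Genes that work with these members were read from 4 lists, and 0 of their genes passed with all 6 arrays. The lists' medians lay between 0.01 and 0.06 over all 6 arrays and between 0.03 and 0.06 in replicates 1 and 2. Of 30 measured genes for collagen modification and secretion, 0 passed in replicates 1 and 2 (0.546% of all clusters passed higher and 0.675% lower). P4HB, which is protein disulfide isomerase and the beta subunit of prolyl 4-hydroxylase, was at 10.43, 10.35 and 10.69 in the controls and at 10.68, 10.72 and 10.42 with TM, so that control 3 lay with TM 1 and TM 2. Its log2 difference in replicates 1 and 2 was 0.31 (standard error 0.06, adjusted p = 0.0725 by limma), and 0.12 over all 6 arrays (standard error 0.11). MIA2, a part of the ER exit site for large cargo, gave 0.33 (standard error 0.07), and PLOD2, a lysyl hydroxylase, −0.20 (standard error 0.08), at adjusted p = 0.0772 and 0.185 from limma. Over all 6 arrays MIA2 gave 0.003 (standard error 0.18) and PLOD2 −0.19 (standard error 0.06).

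Of 33 genes of the adhesion machinery inside the cell, 1 rose in replicates 1 and 2 and 0 fell. NEDD9, a scaffold of focal adhesions, was at 6.13, 6.06 and 6.76 in the controls and at 6.79, 6.67 and 6.13 with TM. Control 3 was as high as TM 1 and TM 2, and TM 3 as low as control 1. It rose by 0.64 on the log2 scale in replicates 1 and 2 (standard error 0.07, adjusted p = 0.0379 from limma) and gave 0.21 over all 6 arrays (standard error 0.23, adjusted p = 0.622). Without TM 1 or without TM 2, 0 of all clusters passed in replicates 1 and 2. The call of NEDD9 ended without any 1 of the 4 arrays (adjusted p = 0.0795 to 0.173 in limma), with the replicate block (adjusted p = 0.0947) and under quantile normalization (adjusted p = 0.0542). FERMT3, the kindlin of blood cells, was at 6.22, 6.21 and 6.21 in the controls and at 6.46, 6.49 and 6.40 with TM, with no overlap, a difference of 0.24 with all 6 arrays (standard error 0.05, adjusted p = 0.143 from limma) and of 0.26 in replicates 1 and 2. DST, whose epithelial form links hemidesmosomes to keratin, and TNS4, a tensin that binds integrin tails, gave −0.26 and −0.27 in replicates 1 and 2 (standard errors 0.07 and 0.09, adjusted p = 0.0990 and 0.145 from limma) and −0.17 and −0.14 over all 6 arrays.

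Of 24 other matrix ligands and 9 other receptors for laminin and collagen, 0 passed in replicates 1 and 2. CCN1, an integrin-binding matricellular protein, was at 7.85, 7.84 and 8.25 in the controls and at 8.18, 8.19 and 7.79 with TM. Its log2 difference in replicates 1 and 2 was 0.34 (standard error 0.06, adjusted p = 0.0604 by limma), and over all 6 arrays 0.07 (standard error 0.15). TNC, the matrix glycoprotein tenascin-C, was at 10.46, 10.36 and 10.78 in the controls and at 10.70, 10.69 and 10.36 with TM, with 0.29 (standard error 0.07, adjusted p = 0.0827) and over all 6 arrays 0.05 (standard error 0.14). In both genes control 3 was the highest of the 6 arrays. Among the receptors the differences in replicates 1 and 2 were 0.22 for LAIR1, a collagen receptor of leukocytes, 0.20 for MRC2, an endocytic collagen receptor, −0.18 for BCAM, which binds laminin alpha 5, and −0.06 for CD44. Over all 6 arrays they were 0.19, 0.19, −0.03 and −0.07.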

How the data were processed

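The values are log2 expression per transcript cluster and array, as deposited by the authors, who had summarised and normalized them. MAS5 is the tool named in the submitters' processing notes, while for background correction and build the sources used here name nothing. Every value column matched a sample. Symbols came from the array annotation and gene classes and promoter windows from RefSeq (GRCh38.p14). The rule that sets the members leaves out 1 collagen gene, which is not reported here. Counts of N-glycosylation sites in the proteins were planned and were not analysed here.

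TM was compared with control by limma 3.58.1 in R 4.3.3 (lmFit and eBayes, two-sided, no filter), with Benjamini-Hochberg adjustment over all 67528 clusters at 0.05, for all 6 arrays and for replicates 1 and 2. Members past the study's thresholds (unadjusted p under 0.05 with at least 1.2-fold change) were counted too. With 3 arrays against 3 an exact permutation test cannot go below p = 0.1, so none was run. p-values measure the spread between these samples, and the number of arrays limits the precision. The limma steps were tested on simulated data, with independent clusters and the spread of replicates 1 and 2. Of true log2 changes of 0.25 and −0.25, 4% and 12% passed with all 6 arrays and 0% in replicates 1 and 2. Of changes of 0.5, 88% passed with all 6 arrays and 62% in replicates 1 and 2. The simulated 6 arrays lack the spread that control 3 and TM 3 added to the real ones, where 0.0% of all clusters passed. The simulated shares for 6 arrays are too high for genes in which these arrays went against their labels, such as DDIT3 (standard error 1.14). Most true changes of the size seen in the members would thus not pass.

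Genes named are the brightest of each family (6 integrins, 5 laminins and 5 collagens), those with the smallest p in each direction (4 in replicates 1 and 2, 2 with all 6 arrays), their partner chains, and 2 per direction from each of 4 lists (collagen modification and secretion, adhesion machinery, other matrix ligands, other receptors). Members, lists and tests were chosen with earlier results of these data known. Setting replicate 3 apart, the split by level and the counts of members with no overlap under other scalings, and the alternatives for genes of the lists, were chosen after values were seen. Alternatives were quantile normalization, median centring, the brighter part of clusters, trend and robust options, a replicate block, the mean of a gene's clusters, a fold change of 1.5 and leaving out each array. Figures used matplotlib 3.10.9.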

Additional observations from a re-analysis of the deposited data

How the results depend on the processing

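The counts of members passing the adjusted p stayed at 0 over all alternatives with all 6 arrays. In replicates 1 and 2 the count rose to 7 of 61 when only the brighter part of clusters was tested. These were COL8A2 and ITGAX (higher) and COL4A5, ITGA1, ITGA4, ITGB6 and LAMB1 (lower), where 2727 of 33764 clusters passed higher and 2889 lower. With trend and robust options the count rose to 4 (COL4A5, ITGA4, ITGB6 and LAMB1, all lower), where 1860 of 67528 clusters passed higher and 2711 lower. It stayed at 0 with quantile normalization, median centring, the replicate block and the mean of a gene's clusters. With the unadjusted p and fold change of 1.2, replicates 1 and 2 gave 2 members, then 4 with median centring and 0 at a fold change of 1.5. Leaving out 1 array gave 0 to 1 with all 6 arrays (COL11A2, without control 2 or without TM 1) and 0 to 5 in replicates 1 and 2 (5 without TM 1, 0 without TM 2). With each array centred, which lowers the median of all clusters from 0.04 to −0.03 over 6 arrays, the medians over 6 arrays became 0.0546 for collagens, −3.5e-06 for integrins and −0.0750 for laminins, and in replicates 1 and 2 0.0762 for integrins and −0.0157 for laminins. The laminin median in replicates 1 and 2 was −0.0154 after quantile normalization and −0.113 in the brighter part, and −0.0786 there with 6 arrays. Without 1 array the median in replicates 1 and 2 was 0.0822 to 0.109 for integrins, −0.0152 to 0.0501 for laminins and 0.0708 to 0.156 for collagens (0.116 with all 4 arrays), the lower ends without TM 2. The collagen median was 0.0749 with centring in replicates 1 and 2 and 0.0744 with quantile normalization over 6 arrays, where it was 0.126 as deposited. The cause was not tested.

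Of the named members, the sign of those below turned, in the 6-array values except for COL5A2, which turned in both fits. With median centring these were COL4A2 (−0.0673), COL4A6 (−0.0641), COL5A1 (−0.0697), ITGA3 (−0.0358), ITGAV (−0.0620), COL5A2 in replicates 1 and 2 (−0.0285), ITGB4 (−0.0280) and LAMA2 (−0.0138), and with quantile normalization COL4A6 (−0.0549), ITGA5 (0.00384), ITGA2 (0.0371), ITGB5 (0.0109) and LAMA2 (−0.00652). Leaving out 1 array gave −0.0123 to 0.0200 for COL4A2, −0.0296 to 0.0397 for COL4A6, −0.0148 to 0.0145 for COL5A1, −0.122 to 0.0283 for ITGA5, −0.0863 to 0.0874 for ITGA2, −0.0418 to 0.0811 for ITGAV and, for COL5A2, −0.0408 to 0.00274 and, in replicates 1 and 2, −0.0304 to 0.0566. Of the list genes, over 6 arrays, BCAM was at 0.0192 with quantile normalization and −0.113 to 0.0203 without 1 array, MIA2 at −0.0161 with quantile normalization, −0.0678 with centring, −0.0307 as the mean of its clusters and −0.103 to 0.198 without 1 array, and TNC at −0.0192 with centring and −0.0344 to 0.176 without 1 array. CCN1, DST, MIA2, P4HB and TNC passed in replicates 1 and 2 in the brighter part and with trend and robust options, and FERMT3 in the former.

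The replicate numbers were not taken as pairs, since no label says what they share. The deviations of control and TM arrays from their group means correlated at −0.177, −0.311 and −0.534 for numbers 1, 2 and 3, and control 3 and TM 3, which departed in opposite directions, enter all of them. The correlation in replicates 1 and 2 alone was −0.066, over too few pairs to tell whether numbers 1 and 2 pair. With the replicate block 0 members passed in either fit, 0 and 2 were past p and fold, and in replicates 1 and 2 the calls over all clusters went from 825 to 18 higher and 10 lower, ending that of NEDD9.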
